A study of Homo sapiens with 4 samples.

Results

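Axon guidance genes encode the cues that steer a growing axon and the receptors through which the growth cone reads them. The 60 genes described here are the semaphorin, plexin, neuropilin, netrin, draxin, RGM, Nogo receptor, UNC5, DCC, neogenin, slit, robo, srGAP, Eph and ephrin genes of a list, matched by gene symbol to a table of 77973 genes; all 60 were found, and they fall into 12 families. They were followed through 4 long-read libraries of human neurons. Of these genes, 42 averaged 20 or more reads per library and could be tested, out of 8145 such genes in all.

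The cells were i3N neurons: neurons labelled cortical that doxycycline-driven human NGN2 induces from KOLF2.1J, an established induced pluripotent stem cell line, carrying a constitutive dCas9-BFP-KRAB construct for CRISPR interference. All 4 groups shared this line, the construct, a lentiviral guide RNA with puromycin selection, and doxycycline. The control received a non-targeting guide and no drug. The TDP-43 knockdown received a guide against TARDBP, whose product TDP-43 binds RNA and keeps cryptic exons out of transcripts. The azacytidine group received the non-targeting guide and 5-azacytidine, a cytidine analogue that blocks DNA methylation, at 5 µM over 72 hours, and the last group received the TDP-43 guide and the drug. The guide-bearing cells were selected pools, not single clones. Cultures were harvested on day 12 or day 15, and the labels do not say which for these libraries. Polyadenylated RNA was sequenced by PacBio Iso-Seq, which reads complementary DNA molecules from end to end where the molecule is intact.

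With 1 library per group, differences have no replicate check, and a test on reads compares those libraries, not the conditions. A gene was called for azacytidine when it differed in both pairs of libraries that share no library (azacytidine against control, and both treatments against knockdown), in the same direction, with an adjusted p-value under 0.05 and an absolute log2 ratio of at least 1 in each. The knockdown calls used knockdown against control and both treatments against azacytidine. Reads were scaled to effective library sizes, and intervals cover counting error only. Where 4 values of a gene are given without labels, their order is control, knockdown, azacytidine, both treatments. Levels are in CPM, computed on the effective library sizes, and are not divided by gene length, so levels are compared between libraries and not between genes. In bulk RNA, fewer cells of a type and less RNA per cell cannot be told apart.

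The libraries held between 466337 and 767621 reads in genes. TARDBP, which encodes TDP-43, had 104 reads in the control, 72 in the knockdown, 73 after azacytidine and 43 with both. Its log2 ratio was -0.86 without azacytidine and -0.79 with it (exact binomial test, adjusted p = 0.00134 and 0.0317), so it fell in each knockdown library by less than the threshold for a call. All 15 markers of postmitotic neurons had reads in every library, with summed levels between 3309 and 4234 CPM. Of the 14 testable, 1, RBFOX3, was called higher with azacytidine and 0 lower. With the knockdown 1, ELAVL4, was called higher and 0 lower. The sum covers genes that moved in opposite ways: MAP2 had 540, 761, 319 and 162 reads, and RBFOX3 had 35, 39, 90 and 131. Of 11 markers of cortical glutamatergic neurons, 2, 1, 2 and 3 were at 0 in the 4 libraries, and BCL11B, a deep-layer cortical marker, had 2 reads in all. SLC17A6, a vesicular glutamate transporter, had between 82 and 170, and POU3F2 had 98, 123, 30 and 43. The list summed to 693, 721, 514 and 567 CPM. Of its 6 testable genes 1, NEUROD2, was called higher with azacytidine and 0 lower. The 7 markers of peripheral or sensory neurons summed to 479, 475, 398 and 296 CPM, with 1 of 5 testable genes called lower. The 7 pluripotent stem cell markers summed to 450, 448, 302 and 402 CPM, with 1 of 3 called lower. Of 11 testable markers of proliferating cells or neural progenitors, 9 were called lower with azacytidine, and the list's summed level was 2109 in the control, 2075 in the knockdown, 262 after azacytidine and 175 with both. Of its 14 genes, HES1 and FABP7 were at 0 with both treatments, and no marker of the list was at 0 in the other libraries. Lists with no testable gene were lower in the drug libraries too: glial markers summed to 176, 107, 74.9 and 51.0 CPM, with 2, 3, 5 and 5 of 10 at 0, and mesenchymal or neural crest markers to 97.5, 93.3, 18.7 and 6.12 CPM, with 2, 3, 5 and 6 of 8 at 0. The part of these marker levels in the results on azacytidine below was not tested.

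Guidance cues act in pairs with their receptors. Semaphorins bind plexins, with neuropilins as co-receptors for the secreted class 3 members; netrins attract through DCC and repel through UNC5 receptors; slits repel through robo receptors, which recruit srGAP proteins to the cytoskeleton; and ephrins, anchored in the membrane, bind Eph receptor kinases and can signal in both directions. In the developing brain these systems set where axons cross the midline, where they stop and which partners they avoid.

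With azacytidine, 7 of the 42 testable guidance genes were called lower, or 16.7%, where 6.8% of all 8145 genes tested were. They were the repellent cue SLIT2, the netrin receptor DCC, the plexin PLXNA4, the kinase receptor EPHA7, the ephrin EFNA5 and the srGAP proteins SRGAP1 and SRGAP2. A single gene, the netrin receptor UNC5B, was called higher, or 2.38% of 42 against 3.12% of all genes. The median log2 ratio of the 42 genes was -0.02 in azacytidine against control and -0.31 in both treatments against knockdown, against medians of 0.00 and -0.01 over all genes. In either direction 8 of the 42 were called, against 9.92% of all genes. In azacytidine against control alone, 1 of the 42 passed both thresholds higher and 8 lower, against 5.99% and 10.6% of all genes; in both treatments against knockdown alone 2 did so higher and 13 lower, against 11.3% and 15.2%. In 17 of the 42 (40.5%) both azacytidine libraries lay below both libraries without the drug, and in 10 (23.8%) above them; over all genes tested these shares were 27.9% and 26.6%. The rule was passed by a minority of the family, and 34 of the 42 were not called. Of the 18 genes with too few reads to test, 10 (55.6%) had both azacytidine libraries below both others and 4 (22.2%) above them, against 27.2% and 20.5% of all 9801 genes below the minimum with at least 8 reads in total. SLIT3, UNC5A, NTN1, NTN4, EPHA5, EPHB4, SEMA5A, SEMA4C, SEMA4D and PLXNC1 are named below after their values were seen.

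**Figure D1:**
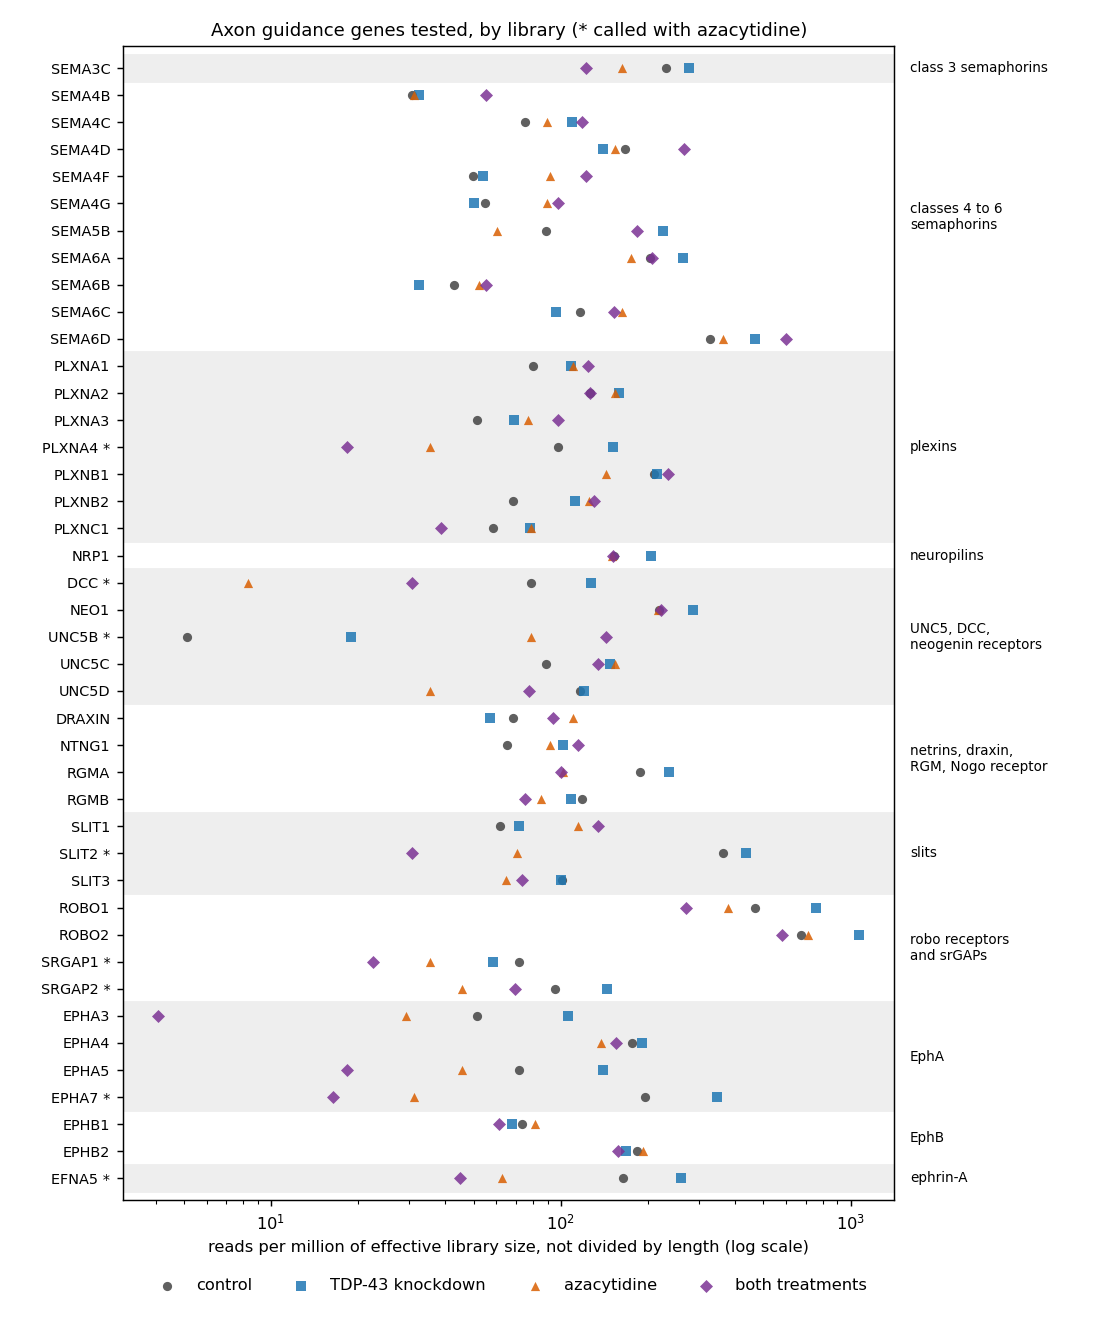
Levels of the 42 testable guidance genes in each of the 4 libraries, in CPM on effective library sizes on a log axis, with 1 point per library and genes ordered by family; asterisks mark the 8 genes called with azacytidine. SLIT2 and EPHA7 show the azacytidine libraries far to the left of the others, UNC5B shows them far to the right, and most semaphorins and plexins show all 4 points close together.

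Among the slits, secreted proteins that repel axons through robo receptors, the 3 family members went different ways. SLIT2 (ENSG00000145147.20, chromosome 4, 20251905 to 20620561, hg38) counted 212 reads in the control, 323 in the knockdown, 34 after azacytidine and 15 with both treatments, which are levels of 363, 437, 70.8 and 30.6 CPM. Both azacytidine libraries were far below both others, and the groups did not overlap. SLIT2 fell to 19.5% of the control level (log2 ratio -2.34, 95% interval -2.92 to -1.83) and to 7.00% of the knockdown level (-3.80, -4.69 to -3.09), with exact binomial adjusted p-values of 6.45e-23 and 2.06e-49. SLIT1 (ENSG00000187122.17, chromosome 10, 96998038 to 97185959) counted 36, 53, 55 and 66 reads in the same order, or levels of 61.6, 71.7, 114 and 135. Its azacytidine libraries lay above the others, with log2 ratios of 0.89 and 0.90 (exact binomial adjusted p = 0.0203 and 0.00265), short of the ratio of 1 that a call needed. SLIT3 had 59, 74, 31 and 36 reads and ratios of -0.64 and -0.44.

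No methylation was measured in these libraries, but azacytidine acts on methylation at CG dinucleotides, so the CG content of the promoters is shown for genes that fell and for SLIT1, which did not. The 250 bases upstream of the RefSeq transcription start (GRCh38.p14) are printed 5′ to 3′ on the strand of the gene, with every CG in capitals. The windows are chr4:20251655-20251904 (plus strand) for SLIT2, chr6:93419560-93419809 (minus strand) for EPHA7, chr18:52339947-52340196 (plus strand) for DCC and chr10:97185960-97186209 (minus strand) for SLIT1.
SLIT2: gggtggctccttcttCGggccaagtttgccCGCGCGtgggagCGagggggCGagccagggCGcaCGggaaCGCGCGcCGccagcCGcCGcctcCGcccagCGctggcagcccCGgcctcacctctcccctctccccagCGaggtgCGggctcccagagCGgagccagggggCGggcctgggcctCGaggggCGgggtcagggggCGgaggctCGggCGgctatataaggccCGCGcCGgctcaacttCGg
EPHA7: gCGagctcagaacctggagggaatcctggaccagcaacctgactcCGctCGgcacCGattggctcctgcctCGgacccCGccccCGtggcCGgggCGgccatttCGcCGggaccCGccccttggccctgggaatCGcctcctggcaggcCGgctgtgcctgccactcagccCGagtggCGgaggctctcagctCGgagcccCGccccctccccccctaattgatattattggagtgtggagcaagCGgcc
DCC: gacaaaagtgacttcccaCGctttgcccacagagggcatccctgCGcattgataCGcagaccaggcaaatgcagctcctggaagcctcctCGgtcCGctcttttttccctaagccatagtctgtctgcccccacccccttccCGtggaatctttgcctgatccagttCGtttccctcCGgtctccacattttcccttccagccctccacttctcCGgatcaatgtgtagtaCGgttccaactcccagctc
SLIT1: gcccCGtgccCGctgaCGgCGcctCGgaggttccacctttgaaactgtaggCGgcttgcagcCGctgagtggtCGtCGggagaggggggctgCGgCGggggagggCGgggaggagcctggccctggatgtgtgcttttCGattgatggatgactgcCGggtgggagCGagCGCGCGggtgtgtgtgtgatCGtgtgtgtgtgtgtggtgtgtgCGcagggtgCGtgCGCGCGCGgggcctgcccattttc
They hold 30 CG in SLIT2, 19 in EPHA7, 10 in DCC and 25 in SLIT1. Promoters were matched for 52 of the 60 genes. The 7 genes called lower held a median of 22 CG (10 to 41) and the 30 testable genes not called held a median of 15 (2 to 46), while 6578 genes tested with a promoter in the table had a median of 22. At least 10 CG were found in 100% of the 7, in 70% of the 30 and in 88.1% of the 6578. The letters TATAAA, on either strand, were in none of the 7 and in 4.39% of the 6578. Only these exact letters were searched for, so other forms of a TATA box were not counted. The SLIT2 window holds the similar letters tatataa near its end. In 6 of the 7 the start of the transcript with the most reads was that of the RefSeq promoter; in PLXNA4 transcripts with different starts tied for the most reads. Among the 7, EFNA5 held the most and DCC the fewest. The part of promoter CG in the calls was not tested.

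Receptors for netrins split in both directions. DCC (ENSG00000187323.13, chromosome 18, 52340197 to 53535899), through which netrin attracts commissural axons, had 46 reads in the control, 94 in the knockdown, 4 after azacytidine and 15 with both treatments, or levels of 78.7, 127, 8.33 and 30.6. The drug libraries were the 2 lowest. DCC fell to 10.6% of the control level (log2 ratio -3.11, -5.18 to -1.79) and to 24.1% of the knockdown level (-2.02, -2.95 to -1.26), with exact binomial adjusted p-values of 3.31e-07 and 4.28e-08.

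UNC5B (ENSG00000107731.12, chromosome 10, 71212570 to 71302864), a receptor of the repulsive response to netrin, moved the other way. It had 3 reads in the control, 14 in the knockdown, 38 after azacytidine and 70 with both treatments, or levels of 5.13, 18.9, 79.1 and 143. Both azacytidine libraries lay above both libraries without the drug, the combined library highest. UNC5B did not pass in knockdown against control (log2 ratio 1.72, exact binomial adjusted p = 0.123). Its log2 ratio with azacytidine was 3.74 (2.29 to 6.29) without the knockdown and 2.86 (2.07 to 3.86) with it, with exact binomial adjusted p-values of 5.90e-09 and 1.27e-14. With 3 reads in the control, the size of the first ratio is known only to within its wide interval.

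The related receptors did not pass the rule. UNC5C had 52, 109, 74 and 66 reads in the 4 libraries, with azacytidine ratios of 0.79 and -0.13. UNC5D had 68, 89, 17 and 38 reads, with ratios of -1.69 (exact binomial adjusted p = 2.57e-05) and -0.63 (adjusted p = 0.054); the azacytidine library was lowest, and the pair with the knockdown missed the threshold. NEO1, neogenin, the receptor of RGM proteins, had 128, 211, 104 and 109 reads and ratios of -0.02 (-0.40 to 0.37) and -0.36 (-0.71 to -0.02), so a change of 2-fold in its total lay outside both intervals. UNC5A had between 1 and 4 reads per library.

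The secreted netrins NTN1 and NTN4 had too few reads for a test. NTN1, the classical floor-plate netrin, had 11 reads in the control, 10 in the knockdown, 0 after azacytidine and 1 with both, and NTN4 had 7, 6, 0 and 1. Against a floor of 3 reads, NTN1 was at least 3.01-fold lower and NTN4 at least 1.92-fold lower in the azacytidine library than in the control. Neither gene reached the minimum mean and neither was tested with adjustment. RGMA, a membrane-anchored repellent, had 110, 174, 49 and 49 reads, or levels of 188, 235, 102 and 100. Its azacytidine libraries were the lowest in both pairs, with log2 ratios of -0.88 (exact binomial adjusted p = 0.00233) and -1.23 (adjusted p = 2.28e-07); the first is short of 1, and RGMA was called only with a fold threshold of 1.5. The count used turned the direction of RGMA in both treatments against knockdown. Its ratio there was 0.97 with uniquely assigned reads and 0.50 with full-length counts. RGMB had 69, 80, 41 and 37 reads and ratios of -0.46 and -0.51.

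**Figure D2:**
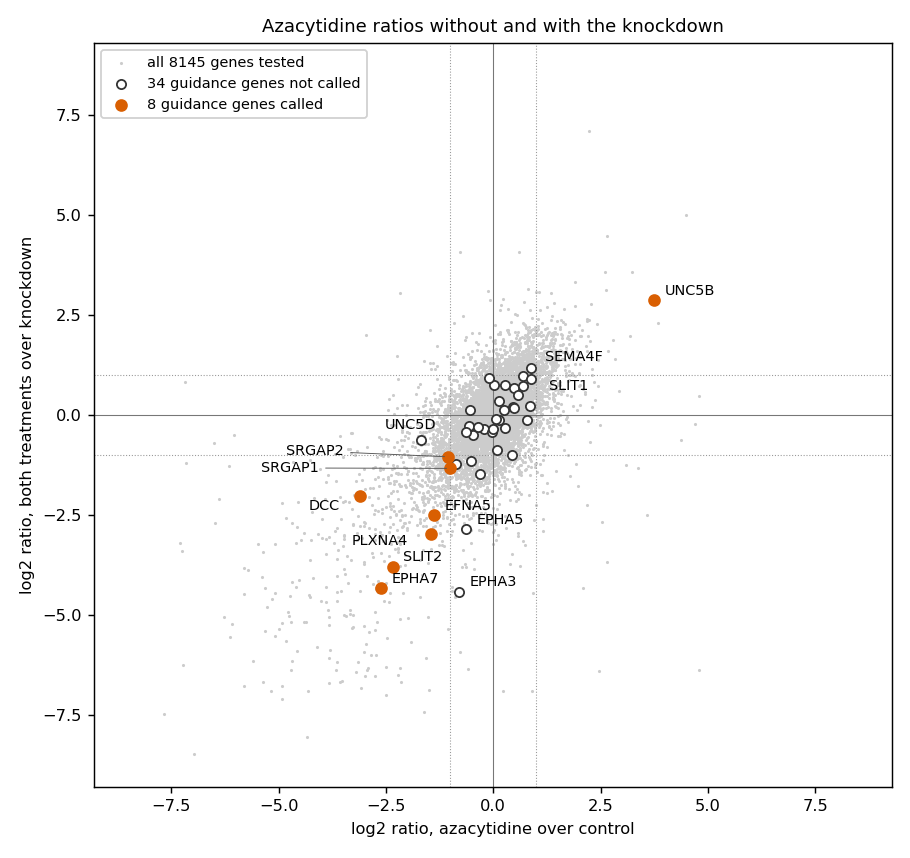
Log2 ratio of each gene with azacytidine without the knockdown (x axis) and with it (y axis); grey points are all 8145 genes tested, open circles 34 guidance genes not called, filled circles the 8 called, and dotted lines mark ratios of 1 and -1. The pairs share no library. SLIT2 and EPHA7 lie lowest among the called genes, UNC5B alone lies at the upper right, and EPHA3 and EPHA5 are low on the y axis only.

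In the Eph family, receptor kinases that repel or adhere on contact with an ephrin-bearing cell, 1 of the 4 EphA genes and 0 of the 2 testable EphB genes were called lower with the drug; the difference between the classes was not tested. EPHA7 (ENSG00000135333.15, chromosome 6, 93240020 to 93419687) had 114 reads in the control, 256 in the knockdown, 15 after azacytidine and 8 with both treatments, or levels of 195, 346, 31.2 and 16.3. The drug libraries lay far below the others without overlap. EPHA7 fell to 16.0% of the control level (log2 ratio -2.61, -3.53 to -1.86) and to 4.71% of the knockdown level (-4.34, -5.63 to -3.41; exact binomial adjusted p = 3.57e-14 and 6.28e-43).

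EPHA3 had 30 reads in the control, 78 in the knockdown, 14 after azacytidine and 2 with both, and EPHA5 had 42, 103, 22 and 9. In both genes the knockdown library was highest and the combined library lowest. In both treatments against knockdown, the ratios were -4.43 and -2.87 (exact binomial adjusted p = 1.25e-13 and 1.07e-12), but in azacytidine against control they were -0.80 and -0.64, with adjusted p-values of 0.222 and 0.234 by the same test, so neither gene was called. EPHA4 had 103, 141, 66 and 76 reads, with ratios of -0.36 and -0.30. All 4 EphA genes had a negative ratio in both pairs, as did 2867 of all 8145 genes, and their summed levels were 494, 782, 244 and 194.

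EPHB1 had 43, 50, 39 and 30 reads and EPHB2 had 107, 124, 92 and 77, with azacytidine ratios between -0.14 and 0.14 and all intervals spanning 0. EPHB4 missed the minimum mean with 44 reads in the control, 33 in the knockdown, 1 after azacytidine and 0 with both. Its groups did not overlap, and it was at least 7.30-fold lower with both treatments than with the knockdown. With a minimum mean of 5 reads instead of 20, EPHB4 and the semaphorin SEMA5A (13, 23, 1 and 2 reads) were called lower too and SRGAP1 was not, which made 8 of 54 genes against 6.16% of 13789; this minimum was listed among the alternatives.

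Among the ephrins, the membrane-anchored ligands of Eph receptors, EFNA5 (ENSG00000184349.14, chromosome 5, 107376894 to 107670937) was the only member with enough reads for a test. It had 96 reads in the control, 192 in the knockdown, 30 after azacytidine and 22 with both, or levels of 164, 260, 62.5 and 44.9. The azacytidine libraries lay below the others without overlap. EFNA5 fell to 38.0% of the control level (log2 ratio -1.38, -2.04 to -0.79) and to 17.3% of the knockdown level (-2.51, -3.24 to -1.89; exact binomial adjusted p = 1.45e-05 and 3.91e-20). EFNA3, with 4, 10, 15 and 12 reads, EFNB1, with 18, 25, 7 and 8, and EFNB3, with 13, 24, 15 and 18, were below the minimum.

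Plexins, the signalling receptors for semaphorins, gave a single call among 7 testable genes. PLXNA4 (ENSG00000221866.10, chromosome 7, 132123340 to 132648688) had 57 reads in the control, 112 in the knockdown, 17 after azacytidine and 9 with both, or levels of 97.5, 152, 35.4 and 18.4. The drug libraries were the lowest in both pairs. PLXNA4 fell to 36.3% of the control level (log2 ratio -1.44, -2.34 to -0.66) and to 12.1% of the knockdown level (-2.99, -4.21 to -2.07; exact binomial adjusted p = 0.000873 and 2.57e-14). The other plexins did not share this. PLXNA2 had 74, 117, 74 and 62 reads with ratios of 0.28 and -0.32, and PLXNB1 had 123, 159, 69 and 115 with ratios of -0.55 and 0.12. Their 7 genes had median azacytidine ratios of 0.44 and 0.12. NRP1, the neuropilin with reads enough to test, had 89, 151, 72 and 74 reads and ratios of -0.02 and -0.43, and NRP2 had 15, 18, 6 and 4.

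Semaphorins were the largest family with no call for azacytidine. The 10 testable genes of classes 4 to 6, which are membrane-bound and act as ligands and in some cases as receptors, had median ratios of 0.19 and 0.71, and 7 of the 10 were positive in both pairs, as were 2839 of all 8145 genes. SEMA6D had 192, 347, 174 and 293 reads with ratios of 0.14 and 0.35, and SEMA6A had 119, 195, 84 and 101 with ratios of -0.22 and -0.36. SEMA3C, a secreted ligand of neuropilins, had 135, 204, 78 and 60 reads; its ratios were -0.51 (exact binomial adjusted p = 0.0503) and -1.17 (adjusted p = 6.29e-08). SEMA3D had 26, 39, 8 and 2. Neither class 3 gene was called.

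Downstream of slits, robo receptors and srGAP proteins differed. SRGAP1 (ENSG00000196935.10, chromosome 12, 63843761 to 64162217), a GTPase-activating protein recruited by robo, had 42, 43, 17 and 11 reads in the 4 libraries, with log2 ratios of -1.0 and -1.34 (exact binomial adjusted p = 0.0488 and 0.0100). This call sits at both thresholds and was lost with 11 of the alternatives tried, among them scaling to total reads and both additive models. SRGAP2 (ENSG00000266028.8, chromosome 1, 206203346 to 206464436) had 56, 107, 22 and 34 reads and fell by 1.05 on the log2 scale in both pairs (exact binomial adjusted p = 0.015 and 0.000478). SRGAP2 has near-identical partial copies in the human genome, so its counts are uncertain.

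ROBO1 had 273 reads in the control, 562 in the knockdown, 181 after azacytidine and 133 with both, and ROBO2 had 393, 792, 343 and 284. The azacytidine ratios were -0.31 and -1.48 for ROBO1 and 0.09 and -0.89 for ROBO2, so both genes passed the adjusted p-value (2.03e-29 and 1.47e-18, exact binomial) in the pair with the knockdown, where the knockdown library was high, and neither did in the other pair. ROBO2 is a case where the count used turned the direction: with sums of estimated transcript counts its ratio in that pair was 0.41, and with uniquely assigned reads it was 0.79.

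Gene length moved with these results. The 42 testable guidance genes spanned a median of 179745 bases from first to last annotated base, against 50206 over all genes tested. Among genes tested that span at least 100000 bases, 11.7% of 2329 were called lower with azacytidine and 1.16% higher. Among the 5814 genes tested that span under 100000 bases, 4.83% were called lower and 3.90% higher. All 7 guidance genes called lower were among the 28 that span at least 100000 bases, which is 25% of them. Of the 14 shorter ones 0 were called lower, and 1, UNC5B, was called higher. Median azacytidine ratios were -0.33 and -0.54 in the 28 long genes and 0.47 and 0.58 in the 14 short ones; over all long genes tested they were -0.19 and -0.38, and over all shorter genes 0.07 and 0.13. The part of gene length in the calls was not tested.

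With the TDP-43 knockdown, compared without and with azacytidine, 1 guidance gene was called higher, SEMA5B, or 2.38% of 42 against 0.344% of all genes, and 0 lower, against 0.663%; in either direction the background was 1.01%. In knockdown against control alone 2 of the 42 passed both thresholds higher and 0 lower, against 3.44% and 3.71% of all genes, and in both treatments against azacytidine alone 2 did so higher and 2 lower, against 3.73% and 4.76%. Both knockdown libraries lay above both others in 8 of the 42 (19.05%) and below them in 2 (4.76%), against 12.8% and 14.7% of all genes. SEMA5B (ENSG00000082684.16, chromosome 3, 122909082 to 123028605) encodes a transmembrane semaphorin that can repel or attract neurites. It had 52 reads in the control, 166 in the knockdown, 29 after azacytidine and 90 with both, or levels of 88.9, 225, 60.4 and 184. Both knockdown libraries lay above both others. SEMA5B rose to 252% of the control level (log2 ratio 1.33, 0.88 to 1.81) and to 304% of the azacytidine level (1.59, 0.99 to 2.26; exact binomial adjusted p = 5.00e-08 and 1.85e-06). Additive edgeR and DESeq2 models, which use all 4 libraries with the interaction as error, called 0 of the 42 genes for the knockdown, and edgeR called 0 of the 8145 genes.

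Few of the SEMA5B reads were assigned to a transcript. Reads assigned to its transcripts numbered 18, 28, 11 and 22 in the 4 libraries, which is 34.6%, 16.9%, 37.9% and 24.4% of its gene reads. The knockdown libraries had the lowest shares. With sums of transcript counts SEMA5B was not called.

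**Figure D3:**
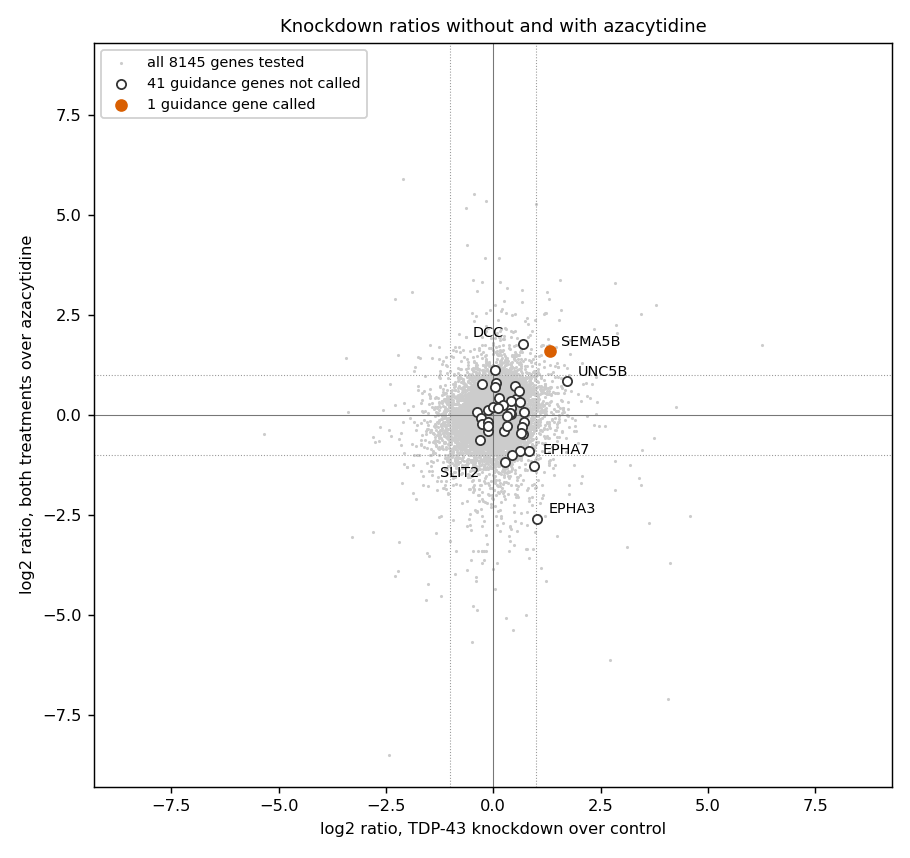
Log2 ratio of each gene with the TDP-43 knockdown without azacytidine (x axis) and with it (y axis); grey points are all 8145 genes tested, open circles 41 guidance genes not called and the filled circle SEMA5B. The pairs share no library. Most guidance genes lie to the right of 0 on the x axis and on either side of 0 on the y axis, and EPHA3 is high on the x axis and low on the y axis.

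Without azacytidine, 32 of the 42 guidance genes had a positive knockdown ratio, as did 3989 of all 8145 genes. The median was 0.38, against -0.01 over all genes. With azacytidine 23 of 42 were positive, as were 4042 of all genes, and the medians were 0.05 and -0.01. SEMA6D had positive ratios in both pairs, 0.51 without the drug and 0.72 with it (exact binomial adjusted p = 0.00119 and 5.75e-06), short of the ratio of 1 that a call needed. Another 7 genes had an adjusted p-value under 0.05 and a ratio under 1 without the drug. Among them, ROBO1 and ROBO2 had knockdown ratios of 0.70 and 0.67 without the drug (exact binomial adjusted p = 1.26e-09 and 1.92e-12) and of -0.47 and -0.30 with it. EPHA7 and EFNA5 had ratios of 0.83 and 0.66 without the drug (exact binomial adjusted p = 7.52e-06 and 0.00328) and of -0.90 and -0.47 with it. EPHA5 had ratios of 0.95 and -1.28, UNC5C of 0.72 and -0.19 and PLXNA4 of 0.63 and -0.91 without and with the drug. All 7 had a negative ratio with the drug, as did 4099 of all 8145 genes. The share of all genes that passed as these 7 did was not computed. In the pair with the drug, SEMA4D (0.78), PLXNB1 (0.70), UNC5B (0.85) and UNC5D (1.11) had positive ratios. SLIT2 (-1.19), ROBO1 (-0.47) and EPHA3 (-2.60) had negative ratios there. Each of these had an exact binomial adjusted p-value under 0.05, and the share of all genes that did was not computed. With scaling factors computed over all genes with a read, an alternative chosen after seeing the data, the median ratio of all genes was 0.18 in knockdown against control and -0.10 in both treatments against knockdown, and guidance ratios in those pairs shift by about as much.

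When the libraries were paired for neither treatment (knockdown against control, and azacytidine against both), the rule called 1 guidance gene higher, EPHA3, or 2.38% of 42 against 0.27% of all genes, and 0 lower against 0.16%; in either direction the background was 0.43%. Its levels were 51.3 in the control, 106 in the knockdown, 29.1 after azacytidine and 4.08 with both. The knockdown ratio was 1.03 (0.42 to 1.70) without the drug and -2.60 (-6.02 to -0.71) with it, with exact binomial adjusted p-values of 0.00761 and 0.02. The same number of guidance genes was thus called for the knockdown as for this pairing.

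Reads assigned to a gene are not all assigned to a transcript. Over the 60 guidance genes, 60.5% of gene reads in the control, 52.4% in the knockdown, 68.4% after azacytidine and 62.6% with both were, against 65.1%, 59.9%, 68.5% and 60.9% over all genes tested. In ROBO2 the shares were 32.1%, 26.9%, 56.9% and 66.9%, and in ROBO1 45.4%, 42.3%, 71.8% and 69.2%. Both receptors had more of their reads on transcripts in both azacytidine libraries than in either library without the drug. The same held for 14 of the 42 testable guidance genes (33.3%), and for 21.0% of the 8089 genes tested in which the share could be compared, while the reverse held for 3 (7.14%) against 13.3%. ROBO2 had 126, 213, 195 and 190 transcript reads in the 4 libraries. Deposited full-length counts were 0 in every library for 8 of the 60 genes, DCC, EFNA5, ROBO1, UNC5C and UNC5D among them.

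**Figure D4:**
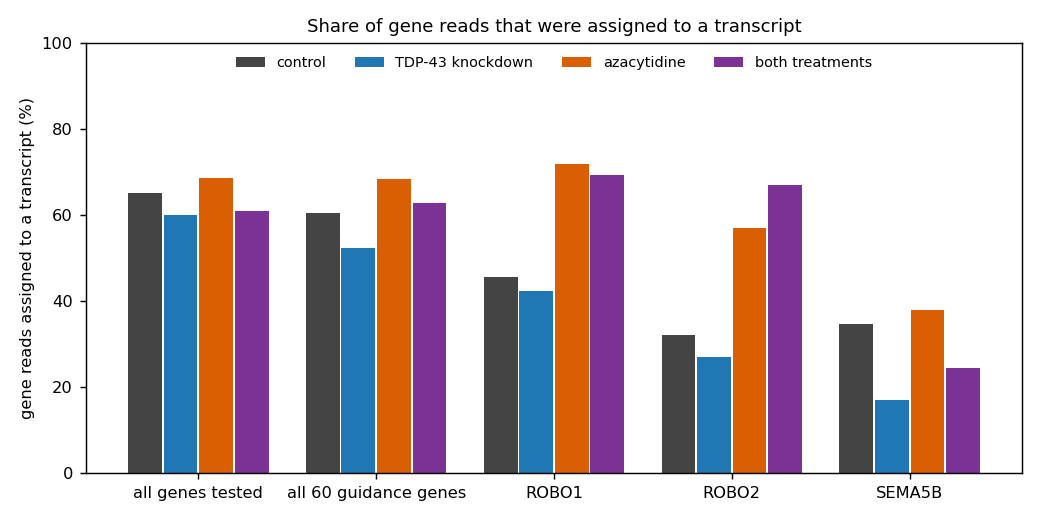
Share of gene reads that were assigned to a transcript, in percent, as bars from 0 for all genes tested, all 60 guidance genes, ROBO1, ROBO2 and SEMA5B in the 4 libraries. ROBO1 and ROBO2 rise from under 46% without azacytidine to over 56% with it, and SEMA5B is lowest in the knockdown library at 16.9%.

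Transcript usage, the share of a gene's transcript reads that falls on each transcript, could be tested for 77 transcripts of 32 guidance genes. With azacytidine 2 were called (adjusted p under 0.05 and a change of at least 10 percentage points in both pairs), against 1.15% of all 15175 transcripts tested; both belong to NEO1. The unannotated transcript BambuTx1795 took 32 of 84 transcript reads in the control (38.1%), 79 of 137 in the knockdown (57.7%), 9 of 81 after azacytidine (11.1%) and 6 of 76 with both (7.89%). The annotated transcript ENST00000261908.11 took 14.3%, 17.5%, 48.1% and 38.2%, although 0 reads in any library were assigned to it alone. The drug libraries were the 2 lowest for the former and the 2 highest for the latter. The Fisher's exact adjusted p-values were 0.0025 and 5.14e-11 for the former and 0.000263 and 0.0243 for the latter.

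These transcripts differ at the start of another exon and at both outer ends, and in a 33-base coding exon of NEO1 (chr15:73274692-73274724, hg38, plus strand, 11 codons), which ENST00000261908.11 includes and BambuTx1795 skips. Its sequence, from GENCODE 29 transcript ENST00000261908.10, is shown because all 3 transcripts that include it can be set against the 3 that skip it, with a 33-base coding exon of UNC5B (chr10:71288958-71288990, plus strand) that is present in 1 of that gene's 2 transcripts, from ENST00000335350.10.
NEO1 exon: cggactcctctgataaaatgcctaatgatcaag
UNC5B exon: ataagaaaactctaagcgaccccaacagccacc
Transcripts with the NEO1 exon took 39 of 84 reads in the control (46.4%, 95% Wilson interval 36.2% to 57.0%), 55 of 137 in the knockdown (40.1%, 32.3% to 48.5%), 72 of 81 after azacytidine (88.9%, 80.2% to 94.0%) and 70 of 76 with both (92.1%, 83.8% to 96.3%). The 2 azacytidine libraries lay above the others with no overlap of intervals, while the total of NEO1 reads did not differ at the threshold. Reads assigned to 1 transcript alone gave the same order: 22 with and 10 without the exon in the control, 26 and 25 in the knockdown, 28 and 3 after azacytidine, and 41 and 3 with both. The exon was looked at because of the usage call, so its shares are a description and have no test of their own.

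**Figure D5:**
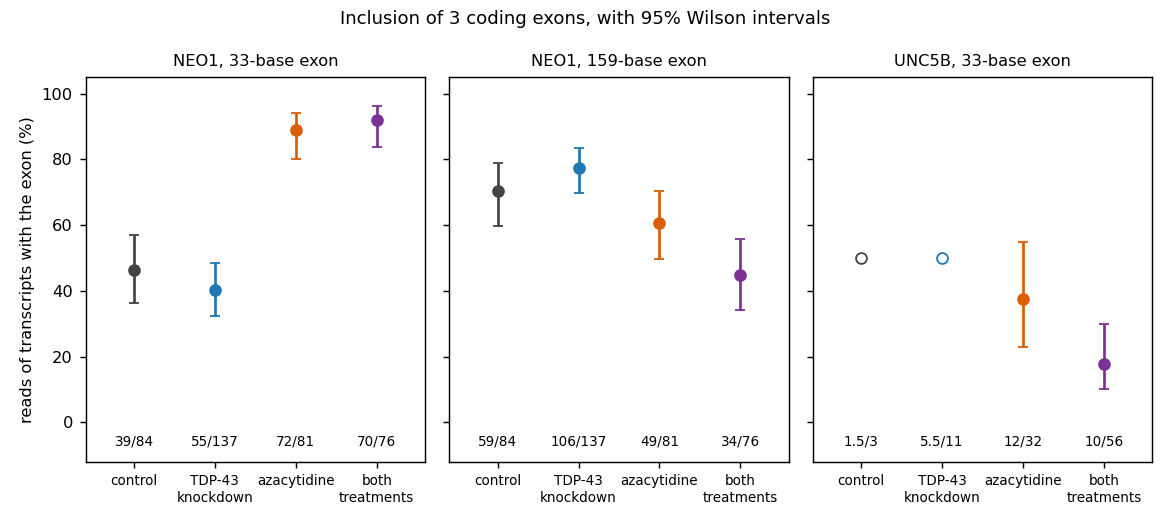
Share of transcript reads from transcripts that include each of 3 coding exons, in percent, with 95% Wilson intervals and the reads behind each point, in the 4 libraries; the open UNC5B points rest on estimated counts that are not whole and have no interval. The 33-base NEO1 exon stands near 90% in both azacytidine libraries and under 50% in the others; the 159-base NEO1 exon and the UNC5B exon are lowest with both treatments.

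A second coding exon of NEO1, of 159 bases (chr15:73293390-73293548), was included in 70.2%, 77.4%, 60.5% and 44.7% of reads in the 4 libraries. It was lower in both azacytidine libraries, and the intervals of the control (59.8% to 79.0%) and azacytidine (49.6% to 70.4%) overlapped. In UNC5B an estimated 1.5 of 3 control transcript reads held the 33-base exon, as did an estimated 5.5 of 11 in the knockdown, 12 of 32 after azacytidine (37.5%, 22.9% to 54.7%) and 10 of 56 with both (17.9%, 10.0% to 29.8%). UNC5B reads without the drug were too few to place its share.

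With the knockdown, 1 transcript was called in usage, against 0.725% of all tested: ENST00000479701.5 of the plexin PLXNB2, which GENCODE 29 classes as a retained intron. It took 7 of 27 reads in the control (25.9%), 0 of 36 in the knockdown, 11 of 28 after azacytidine (39.3%) and 1 of 32 with both (3.13%), with Fisher's exact adjusted p-values of 0.0266 and 0.0194. A count of 0 in 36 allows a share up to 9.64% (Wilson). The knockdown libraries were the lowest, but no read in any library was assigned to this transcript alone, so its counts rest on how reads shared with other transcripts were divided. PLXNB2 itself had 40, 83, 60 and 64 gene reads. In the pairing for neither treatment 1 transcript was called, against 0.547% of all tested: ENST00000287272.6 of UNC5D, with 15 of 36 reads (41.7%), 46 of 62 (74.2%), 13 of 17 (76.5%) and 0 of 11. Neither with uniquely assigned counts nor with full-length counts was any guidance transcript called. Only 31 transcripts of 16 guidance genes could be tested with the former, and 3 transcripts of 1 gene with the latter. ENST00000261908.11 of NEO1 and ENST00000479701.5 had 0 uniquely assigned reads, so those counts could not test them.

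The extended annotation held 553 transcripts of the 60 genes, of which 207 had at least 1 read and 17, in 11 genes, were unannotated. BambuTx4473 of SEMA6A, an unannotated combination of annotated exons, had 31.7, 35.6, 26.8 and 21.0 estimated reads in the 4 libraries. Only NEO1 had an unannotated transcript called in usage. In SEMA4C, BambuTx3217 with an unannotated exon (chr2:96869187-96869762) had 1.85, 13.2, 9.40 and 12.8 estimated reads.

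Genes that act with the guidance receptors or below them in the growth cone were given by a list of 86 symbols, of which 85 matched and 74 were testable. With azacytidine 6 were called lower (8.11% against 6.8% of all genes) and 2 higher (2.70% against 3.12%), and with the knockdown 1 was called higher (1.35% against 0.344%) and 0 lower (against 0.663%). These names were taken after their values were seen. Those called lower were PRTG, SMO, BOC, RYK, FZD3 and ROCK2, which are a DCC-family receptor, hedgehog and Wnt signal receptors and a kinase of the actin cytoskeleton. Those called higher were the actin-binding proteins CFL1 and ABLIM3, and LRIG2 was called higher with the knockdown. BOC, a hedgehog receptor that guides commissural axons, had 79, 120, 2 and 2 reads.

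The additive edgeR model, which lets the interaction of the treatments stand for error, gave adjusted p-values under 0.05 and an absolute log2 change of at least 1 with azacytidine for 6 of the 42 genes. These were EPHA7 (log2 change -3.45, quasi-likelihood adjusted p = 0.0063), SLIT2 (-3.02, 0.00661), UNC5B (3.23, 0.00783), DCC (-2.46, 0.016), EFNA5 (-1.95, 0.0186) and PLXNA4 (-2.19, 0.0246). Additive DESeq2 called the same 6. In both models 1 of the 42 was higher and 5 were lower. Over all 8145 genes edgeR called 2.39% higher and 6.05% lower, and DESeq2 called 0.417% and 2.87%. SRGAP1 and SRGAP2 were not called by either model.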

How the data were processed

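The 4 groups of i3N neurons, 1 library each, were measured by PacBio Iso-Seq. Reads were aligned with minimap2 to hg38, per the file headers, and transcripts were built and quantified with Bambu, per the deposited annotation; versions are not given in the sources used here. The deposited gene counts are all even (within 0.00031) and were divided by 2, on the assumption that each read had been counted 2 times. The deposited transcript, full-length and uniquely assigned counts were divided by 2 as well. Without halving, 10 of 50 testable guidance genes were called lower with azacytidine, against 8.35% of 11091 genes. The deposited transcript values are estimated counts, beside deposited full-length and uniquely assigned counts; the authors' deposited CPM values were not used, and the CPM printed here were computed from the gene reads.

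Genes averaging 20 or more reads were scaled by TMM (edgeR 4.0.16, R 4.3.3), and pairs of libraries were compared with the exact binomial test, two-sided (SciPy 1.17.1), with Benjamini-Hochberg adjustment over 8145 genes and a pseudocount of 0.5 reads for log2 ratios. Transcript usage was compared by Fisher's exact test over 15175 transcripts with at least 10 reads. Additive edgeR and DESeq2 1.42.0 models, other scalings, filters and counts were alternatives. The scripts were tested on simulated data. Promoters are from RefSeq.

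The members and lists were chosen with earlier results of these data known. Genes are named that were called, had a transcript called in usage, or were among the 2 with the most reads in their family; the report lists the exceptions. Library totals of 466337 to 767621 reads and the single library per group limit precision.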

Additional observations from a re-analysis of the deposited data

Results flagged for a closer look

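The Eph receptor EPHA3 had opposite knockdown ratios in the presence and absence of azacytidine: 1.03 on the log2 scale in knockdown against control and -2.6 in both treatments against azacytidine. The UNC5D transcript ENST00000287272.6 did the same in usage, by 32.5 percentage points without azacytidine and by -76.5 percentage points with it, where the combined library had 11 UNC5D transcript reads. In each case the difference between the effects was not tested, and each effect rests on 1 library per group.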

How the results depend on the processing

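No paired analysis was possible because each group holds 1 library and the groups share only replicate number 1; leaving out a replicate was not possible for the same reason. Of 138 alternative values of counts, 99 stayed within 1.5 times the value reported and 39 did not. DCC, EPHA7 and EFNA5 were called lower with azacytidine under every alternative except full-length sums. With uniquely assigned sums 2982 genes were tested, 21 of them guidance genes. With azacytidine 3 guidance genes were lower and 0 higher, against 3.05% and 0.872% of all genes. With the knockdown 0 were higher, against 0.101%. With full-length sums (958 genes, 1 of them a guidance gene) all these counts were 0. A fold threshold of 1.5 gave 3 of 42 guidance genes higher with azacytidine, against 5.81% of all genes. SEMA5B was lost, leaving 0 higher with the knockdown, with transcript sums and both additive models. EPHA3 was lost (0 crosswise) with total scaling, no filter, a pseudocount of 2, and unique, full-length and transcript sums. Usage calls were 0 with unique counts (31 guidance transcripts tested) and full-length counts (3 tested) for azacytidine, the knockdown and the crosswise pairs. With counts not halved they were 5 of 109 for the knockdown and 4 crosswise, against 468 and 277 of all 27549 transcripts. In the downstream list, 1 gene was called higher with azacytidine under no filter, unique sums or edgeR (0.644%, 0.872% and 2.39% of all genes). With full-length sums or DESeq2 the count was 0, against 0.626% and 0.417%, and at a fold of 1.5 it was 5, against 5.81%. Called lower were 1 with unique sums, 0 with full-length sums and 2 with DESeq2, against 3.05%, 1.36% and 2.87%. For the knockdown, 0 of that list were called higher with no filter, unique sums, full-length sums, edgeR and DESeq2. The shares of all genes were 0.0684%, 0.101%, 0.209%, 0% and 0.0491% in that order. At a fold of 1.5 the count was 2, against 1.07% of all genes. How many of the list were testable under each alternative was not counted. Over all genes, 554 were lower with azacytidine, but 91 with unique sums, 13 with full-length sums, 258 with transcript sums, 234 with DESeq2, 849 at a minimum of 5 reads and 926 not halved. Of 896 alternative ratios of named genes, 722 kept their direction and, where a test could be run, their side of the threshold; 37 lost and 18 gained a pass, and 108 others moved, 77 of them with a change of sign. Another 11 ratios had passed and reversed in sign, and the cause was not tested. In knockdown against control with full-length sums they were EPHA3 -0.86, EPHA7 -0.30, PLXNA4 -2.31 and SEMA6D -0.015. In both treatments against knockdown they were PLXNA4 1.71 (full-length), RGMA 0.97 (unique) and 0.50 (full-length), and ROBO2 0.79 (unique) and 0.41 (transcript sums). In both treatments against azacytidine they were UNC5D -2.28 (unique) and -0.52 (transcript sums). The full-length sums were small. They held 2, 0, 1 and 1 reads for PLXNA4, 4, 2, 3 and 0 for EPHA3, and 5, 4, 0 and 0 for EPHA7. SEMA6D had 4, 4, 3 and 9, and RGMA 13, 13, 9 and 16. A reversal was read from the sign alone and was not tested.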
